A study of Drosophila melanogaster with 24 samples.

Results

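The genes described here are the dpr and DIP genes of Drosophila melanogaster, and the measurements are ChIP-seq peaks of insulator proteins and CLAMP at these genes in a cell line. Members were the protein-coding genes of the RefSeq table on arms 2L, 2R, 3L, 3R, 4 and X whose symbol is dpr followed by a number, or DIP followed by a Greek letter name. This gave 32 of 13922 protein-coding genes, 21 dpr genes and 11 DIP genes. Dpr and DIP proteins are cell-surface proteins of the immunoglobulin superfamily. Each DIP binds a particular subset of Dprs, and the pairs label matching pre- and postsynaptic neurons in the fly nervous system, where they act in synaptic partner choice and neuron survival. The founding gene, dpr1, was named for a defective proboscis extension response, a taste behaviour in which mutant flies fail to avoid salt.

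All libraries came from Kc167, an embryo-derived cell line. Cells transfected with 5 ug of dsRNA against Clamp and kept for 6 days gave 2 CLAMP libraries with the second of 2 rabbit antibodies, called clamp-abcam in the labels, and 2 inputs. From mock cells there were 10 inputs and 5 pairs of ChIP libraries, against CP190, Mod(mdg4)2.2, Su(Hw) and CLAMP with the first (called clamp) and with the second antibody, which made 24 libraries in 8 groups. Su(Hw) is a zinc-finger DNA-binding protein, and with CP190 and Mod(mdg4)2.2 it forms the gypsy insulator complex; CLAMP is a zinc-finger protein that binds GA repeats and takes part in dosage compensation. The series asked how far CLAMP and these insulator proteins share sites.

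Each antibody and treatment had 1 list of peaks made from its pooled libraries, which leaves no replicate spread to set beside a value, and the depth behind the peaks is unknown. A gene without a peak is one where no peak passed the authors' threshold. Neither the Clamp level after dsRNA nor the expression of any dpr or DIP gene was analysed here. Intervals are 95% intervals that cover counting error only, and the fold enrichment of a peak is the authors' own value at the summit, read only within its list. A peak counted for a gene when it overlapped the gene or had its summit within 500 bases of either gene end. A summit inside the gene and more than 500 bases from both ends is called interior, since exons and introns were not used, and a summit within 500 bases of an end is called an end peak. Positions are those of genome build dm6. The lists held 3687 Su(Hw), 1732 Mod(mdg4), 9435 CP190 and 5370 first-antibody CLAMP peaks on the arms. The second CLAMP antibody had 1653 peaks after dsRNA and 3861 in mock cells.

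The dpr and DIP genes were long. Their lengths ran from 3.738 kb at dpr19 to 379.1 kb at DIP-lambda with a median of 32.5 kb, against a median of 2.163 kb over all protein-coding genes. The median was 22.3 kb for the dpr genes and 33.6 kb for the DIP genes, and 18 of the 32 members were 20 kb or longer. Because a longer gene offers more room for a peak, each share is given beside all protein-coding genes and beside the 1012 that were 20 kb or longer.

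Su(Hw) had peaks in the interior of more of these genes than CLAMP, and few genes had a peak of either at an end. In the Su(Hw) list 54 peaks lay at members, and 53 of them were interior (98.1%, interval 90.2 to 99.7). An interior Su(Hw) peak was found in 18 of 32 members (56.2%, 39.3 to 71.8), against 7.12% of all protein-coding genes and 61.0% of those of 20 kb or longer. That 56.2% covers 18 long members and 14 shorter ones, so it is not a like comparison with genes of 20 kb or longer alone. Among members of 20 kb or longer 15 of 18 had such a peak (83.3%, 60.8 to 94.2). The other long genes had it in 60.6% of cases, just below that interval, and the difference was not tested. Other neuronal recognition genes of that length had it in 81.1% of cases (30 of 37), so the high share was not particular to the members. The dpr genes had it in 11 of 21 cases and the DIP genes in 7 of 11. A Su(Hw) end peak was found at 1 of 32 members, DIP-beta, against 4.88% of all and 11.1% of long protein-coding genes. In long genes as a whole 93.7% of Su(Hw) pairs of gene and peak were interior as well, where a peak in overlapping genes counted for each. The interior position was thus shared with other genes of that length. CLAMP peaks at members were mostly interior too, at 32 of the 34 first-antibody peaks (94.1%, 80.9 to 98.4) and 5 of the 6 second-antibody peaks in mock cells. Without DIP-lambda, which held 27 of them, 5 of 7 first-antibody peaks were interior, 1 lay at an end and 1 overlapped a gene with its summit outside. The lists thus differed in how many members had a peak, and their peaks at members were mostly interior in each.

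CLAMP end peaks were rare. The first antibody had an end peak at 1 of 32 members (3.12%, 0.554 to 15.7), against 13.8% of all and 31.5% of long protein-coding genes. The second antibody in mock cells also had an end peak at 1 of 32, against 11.8% and 25.0%. After Clamp dsRNA no member had one (0 of 32), against 0.553% and 0.889%. With both mock lists combined 2 of 32 members had a CLAMP end peak (6.25%), against 17.4% and 36.4%. Among members of 20 kb or longer the first antibody had 1 of 18 (5.56%, 0.988 to 25.8) and the second 0 of 18 (0 to 17.6), both intervals lying below the shares of long genes.

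**Figure D1:**
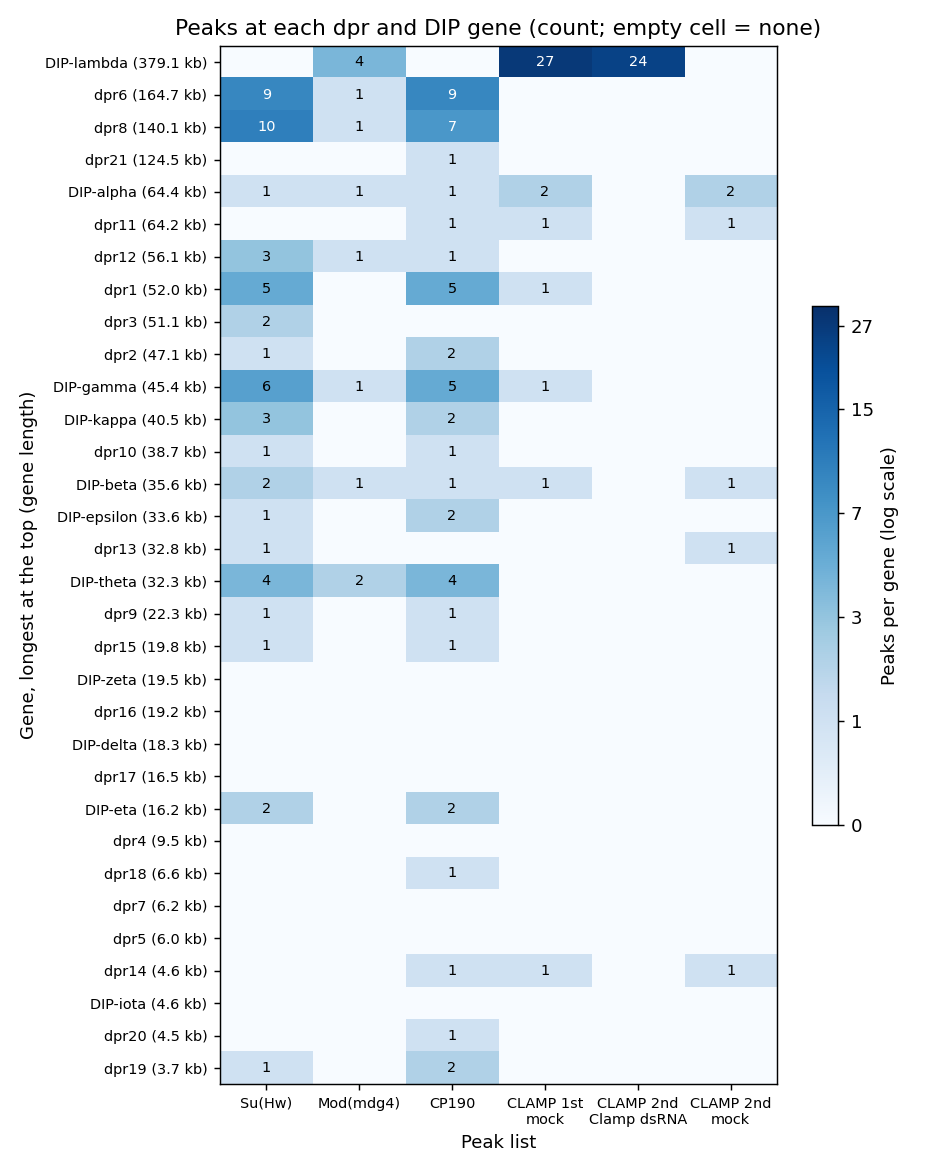
Number of peaks at each of the 32 dpr and DIP genes (rows, longest at the top, with gene length in kb) in each of the 6 peak lists (columns), with darker blue for more peaks on a log colour scale. Su(Hw) and CP190 counts fill the upper part of the map, up to 10 at dpr8, while the CLAMP columns are nearly empty outside DIP-lambda, which had 24 peaks after dsRNA and 27 first-antibody mock peaks.

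The Su(Hw) peaks of the DIP genes, which encode the binding partners of the Dprs, had a median fold enrichment of 10.7 over 19 peaks, against a median of 7.14 over the whole Su(Hw) list. DIP-gamma, which binds Dpr11 and acts in colour-vision circuits of the optic lobe, had 6 interior Su(Hw) peaks in 45.4 kb on 3R, at folds of 11.03, 11.2, 3.81, 10.7, 9.79 and 12.1 in the order of their coordinates. All but 1 of those peaks lay above the list median. DIP-theta on 2L had 4 in 32.3 kb, at folds of 10.2, 13.8, 12.7 and 9.08, all above that median. Its neighbour DIP-eta had 2 (7.40 and 10.9) and DIP-kappa, also on 2L, had 3 (11.2, 9.26 and 3.91). DIP-alpha, the partner of Dpr6 and Dpr10, had 1 Su(Hw) peak of 15.8-fold on X between 3570263 and 3570867, with its summit 1116 bases inside the higher end of the gene. That summit also lay inside ppk8, a gene of the pickpocket ion channel family. DIP-epsilon had 1 peak of 6.62-fold. DIP-beta had an interior peak of 4.59-fold and the end peak, at 11.6-fold, whose summit lay 130 bases outside the lower end of the gene on X between 21421731 and 21422257.

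The 35 Su(Hw) peaks of the dpr genes were all interior and had a median fold of 5.82, below the list median. Most of them lay in 3 genes. The gene dpr8 (140.1 kb on X) held 10, with folds between 3.31 and 18.2. The highest, on X between 14322522 and 14323184, had its summit 689 bases inside the lower end, and it was the strongest Su(Hw) peak at any member. The gene dpr6 (164.7 kb on 3L), which encodes a partner of DIP-alpha, held 9, with folds between 3.51 and 9.99. Counted by interior Su(Hw) peaks among all 13922 protein-coding genes, 20 genes had as many as dpr8 or more, 28 had as many as dpr6 or more and 75 had as many as DIP-gamma or more. The gene dpr1 (52.0 kb on 2R) had 5 peaks, at folds of 4.21, 5.82, 4.07, 4.74 and 7.96. All but the last lay below the list median.

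Smaller numbers were found in the other dpr genes. The gene dpr12, which encodes the partner of DIP-delta in mushroom body wiring, had 3 peaks at folds of 4.51, 3.05 and 11.6, and the 3.05-fold peak was the weakest at any member. The gene dpr3 had 2, at 5.84- and 4.41-fold, and no peak of any other list. One Su(Hw) peak each was found in dpr2 (14.0-fold), dpr9 and dpr15 (8.18-fold each), dpr10 (5.18-fold), dpr19 (4.54-fold) and dpr13 (3.37-fold). Of the 14 members under 20 kb, DIP-eta, dpr15 and dpr19 were the 3 with an interior Su(Hw) peak. Of the 18 longer members DIP-lambda, dpr21 and dpr11 were the 3 without one.

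Interior Su(Hw) summits, which by definition lay more than 500 bases from both ends, were found at a range of distances from them. The distances were not compared with those in other long genes. The median distance from an interior Su(Hw) summit to the nearest end of its gene was 13713 bases, with a range of 689 to 65128. Neighbouring summits within a gene were a median of 8739 bases apart over 35 gaps, with a range of 918 bases in DIP-gamma to 41857 bases in dpr6. Of the 53 interior summits 3 lay within 500 bases of the end of another gene. These were the end of lncRNA:CR44795 in DIP-eta, of mir-964 in DIP-theta and of CG32053 in dpr6.

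**Figure D2:**
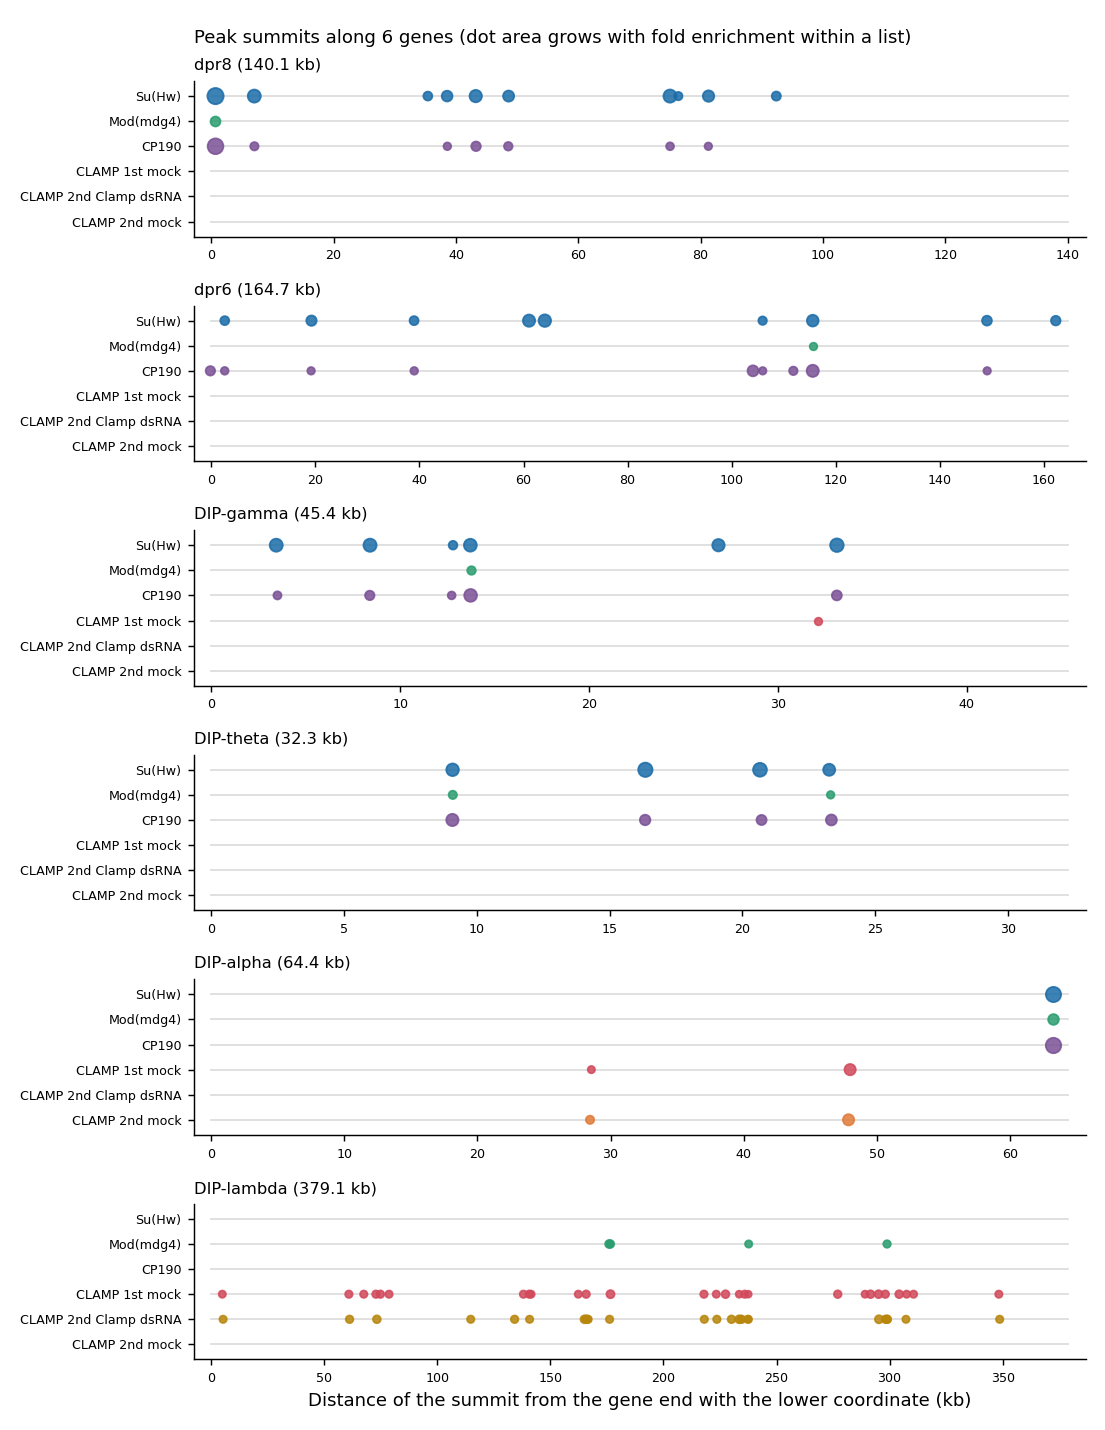
Peak summits of the 6 lists along dpr8, dpr6, DIP-gamma, DIP-theta, DIP-alpha and DIP-lambda; the x axis is the distance of the summit in kb from the gene end with the lower coordinate, and dot area grows with the fold enrichment within a list. In the first 4 genes Su(Hw) and CP190 dots stand above each other along the gene with few or no CLAMP dots, DIP-alpha has CLAMP in the interior away from its single Su(Hw) site, and DIP-lambda has Mod(mdg4) and CLAMP dots but no Su(Hw) or CP190.

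Most of the Su(Hw) peaks carried CP190 and few carried Mod(mdg4). As genes, 21 of 32 members had a CP190 peak (65.6%), against 60.1% of all and 87.5% of long protein-coding genes, and 8 had a Mod(mdg4) peak (25.0%), against 6.18% and 33.3%. Both shares lay between those of all genes and of long genes. CP190 overlapped 38 of the 54 (70.4%, 57.2 to 80.9), against 76.0% of the whole Su(Hw) list and 69.5% of Su(Hw) peaks in the interior of long genes. Mod(mdg4) overlapped 8 (14.8%, 7.70 to 26.6), against 35.4% of the list and 27.4% of the peaks in long-gene interiors. In members of 20 kb or longer it overlapped 8 of 50 (interval 8.34 to 28.5%), which takes in the share of long-gene interiors. All 8 also had CP190. A further 30 had CP190 without Mod(mdg4), and 16 had neither (29.6%, against 22.2% of the list). By family, CP190 was present at 23 of 35 peaks in dpr genes and 15 of 19 in DIP genes, and Mod(mdg4) at 3 of 35 and 5 of 19. Summits at shared sites were close together, with a median distance of 34 bases for CP190 (1 to 127) and 22 bases for Mod(mdg4) (1 to 54).

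The 8 sites with the whole gypsy complex had the higher Su(Hw) folds, with a median of 11.1 (8.53 to 18.2), against 8.001 for those with CP190 alone and 4.53 for those with neither. The whole list showed the same order, at 11.03, 6.49 and 4.54. The 8 sites were the strongest Su(Hw) peak of dpr8 (Mod(mdg4) 5.54-fold, CP190 17.02-fold), the DIP-alpha peak (6.85- and 16.2-fold), the DIP-beta end peak (5.25- and 20.2-fold), the strongest peak of dpr12 (4.73- and 9.31-fold), 1 peak each of DIP-gamma (3.60- and 10.6-fold) and dpr6 (2.43- and 9.38-fold), and 2 peaks of DIP-theta (3.30- and 9.50-fold, and 2.41- and 7.21-fold). The DIP-alpha peak was the strongest Mod(mdg4) peak at any member, and the DIP-beta peak the strongest of CP190. In dpr1 all 5 Su(Hw) peaks carried CP190 and none carried Mod(mdg4). In dpr3, dpr13 and dpr19 the Su(Hw) peaks carried neither.

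**Figure D3:**
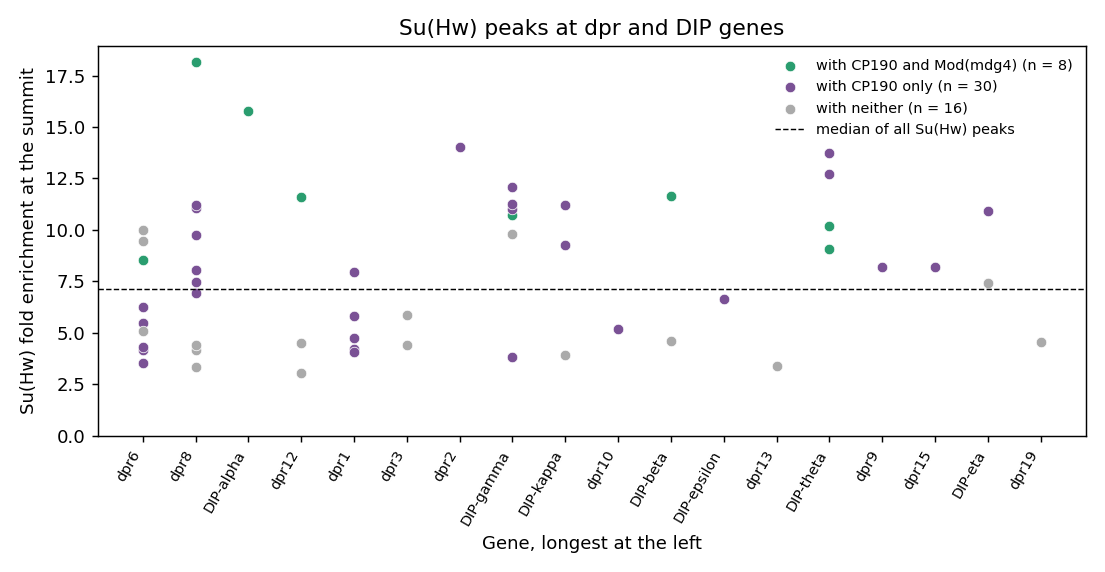
Fold enrichment of each of the 54 Su(Hw) peaks (y axis) by gene, longest at the left, coloured by overlap with CP190 and Mod(mdg4); the dashed line is the median of all Su(Hw) peaks, 7.14. The 8 peaks with both partners all lie above the line, and the 16 with neither have a median of 4.53.

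None of the 54 Su(Hw) peaks overlapped a CLAMP peak of either mock antibody (0 of 54, 0 to 6.64%), while 11.2% of the whole list and 10.7% of the peaks in long-gene interiors did. A first-antibody peak of any position was found at 7 of 32 members (21.9%), against 19.9% of all protein-coding genes, and a second-antibody peak at 5 (15.6%), against 18.9%. A CLAMP peak of either mock antibody anywhere at the gene was found at 8 of 32 members, which at 25.0% was close to the 23.6% of all protein-coding genes and below the 67.4% of long ones. Among members of 20 kb or longer the first antibody had a peak at 6 of 18 (33.3%, 16.3 to 56.3), against 63.6% of long genes, and the second at 4 of 18 (22.2%, 9.001 to 45.2), against 60.6%. Of the 18 members with an interior Su(Hw) peak 13 had no mock CLAMP peak (72.2%), against 436 of the 991 protein-coding genes with such a peak. With members of 20 kb or longer alone it was 10 of 15 (66.7%), against 33.5% of long genes with an interior Su(Hw) peak.

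The CLAMP end peaks themselves were weak. At dpr1 the first antibody gave a peak of 2.46-fold on 2R between 20698320 and 20698670, with its summit 23 bases inside the lower end of the gene, and the second antibody gave none. The list median for that antibody was 2.92. At dpr14, a short gene of 4.583 kb on X, the second antibody gave a peak of 2.38-fold between 7908077 and 7908889 with its summit 43 bases outside the higher end, where the list median was 3.64. The first antibody had a peak over the same end, at 3.07-fold, but its summit lay 551 bases outside the gene, so it did not count as an end peak. A CP190 peak of 3.45-fold lay there as well. With ends widened to 1000 bases the first antibody had 3 of 32 members. No share of all genes at that distance is set beside this count.

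The remaining CLAMP peaks lay inside genes. DIP-alpha held the strongest, on X between 3554741 and 3555757 in the first-antibody list, where the antibodies gave 7.76- and 7.75-fold with summits 117 bases apart. A weaker site in the same gene had 2.05- and 3.29-fold, with summits 99 bases apart. DIP-beta had 1 such site (2.31- and 3.11-fold) and so did dpr11, which encodes a partner of DIP-gamma (2.64- and 2.48-fold, 283 bases apart). DIP-gamma had a first-antibody peak of 2.42-fold with its summit 983 bases from the nearest Su(Hw) summit, and dpr13 a second-antibody peak of 2.0-fold. The nearest Su(Hw) summit to a CLAMP site shared by the antibodies was 10451 bases away, at DIP-beta. CP190 overlapped 1 of the 34 first-antibody peaks at members, the one at dpr14, against 49.4% of that whole list. Without DIP-lambda it was 1 of 7 (14.3%, 2.57 to 51.3), an interval that takes in the share of the list.

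After Clamp dsRNA none of the 6 second-antibody mock peaks at members had an overlapping peak. In the whole list 97.6% of mock peaks had none, so the members showed what most sites showed. The 2 lists share no libraries, but each is a single pooled list, and the difference between dsRNA and mock cells has no replicate check.

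Su(Hw) and CLAMP also differed per unit of length when each was set beside other long genes. In members of 20 kb or longer Su(Hw) had 3.51 peaks per 100 kb (2.61 to 4.63), against 3.54 in other long genes. The first CLAMP antibody had 2.32 (1.59 to 3.25), against 4.93, and the second 0.351 (0.114 to 0.819), against 3.34. Counted with DIP-lambda, Su(Hw) was thus about as dense as in other long genes and CLAMP sparser. The intervals of Su(Hw) and the first CLAMP antibody overlapped each other. One gene weighed heavily on these values, because DIP-lambda made up 24.0% of the length of all members. Without DIP-lambda the densities in members of 20 kb or longer were 4.78 for Su(Hw), 0.574 for the first CLAMP antibody and 0.478 for the second. The Su(Hw) interval was then 3.55 to 6.31, just above the 3.54 of other long genes. CP190 had 3.02 peaks per 100 kb (2.18 to 4.07), or 4.11 without DIP-lambda, against 5.56 in other long genes. Mod(mdg4) had 0.843 (0.435 to 1.47), or 0.765 without it, against 1.56. Among the other long genes 1 gene also weighed heavily, Myo81F, which held 288 Mod(mdg4) and 467 first-antibody CLAMP peaks. Leaving it out, a step chosen after seeing the data, gave 1.04 for Mod(mdg4), inside the interval of the members, and 4.17 for the first CLAMP antibody, still above theirs. For Su(Hw) it gave 3.57, inside the interval of the members without DIP-lambda.

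**Figure D4:**
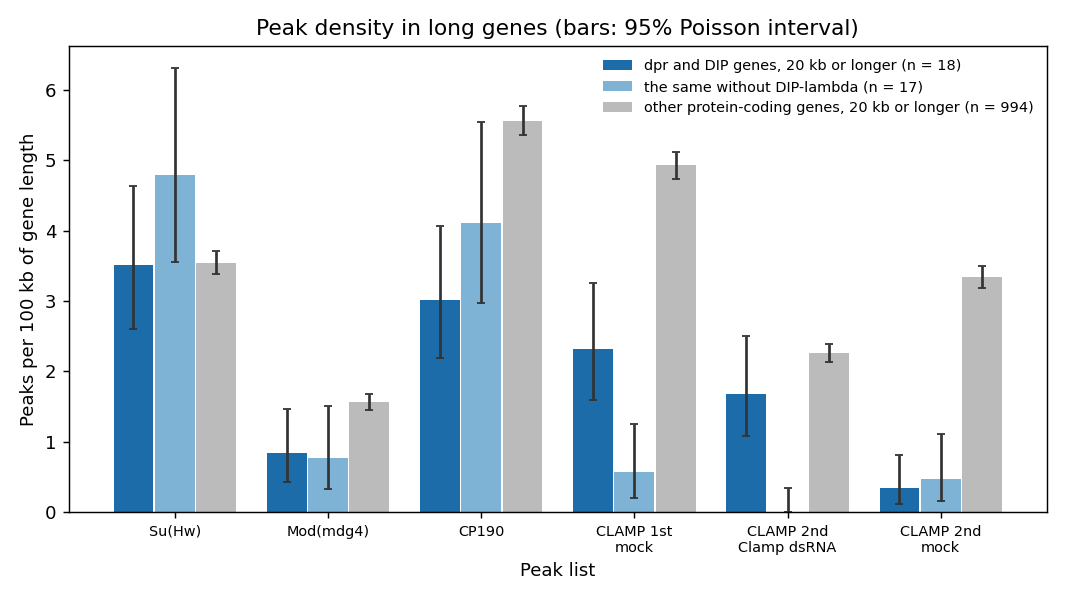
Peaks per 100 kb of gene length in each list (y axis) for dpr and DIP genes of 20 kb or longer (dark blue, 18 genes), the same without DIP-lambda (light blue, 17 genes) and other protein-coding genes of 20 kb or longer (grey, 994 genes), with 95% Poisson intervals. The Su(Hw) bar of the 18 genes (3.51) is level with the grey one (3.54), and for both mock CLAMP lists the blue bars (2.32 and 0.351) are lower than the grey ones (4.93 and 3.34).

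**Figure D5:**
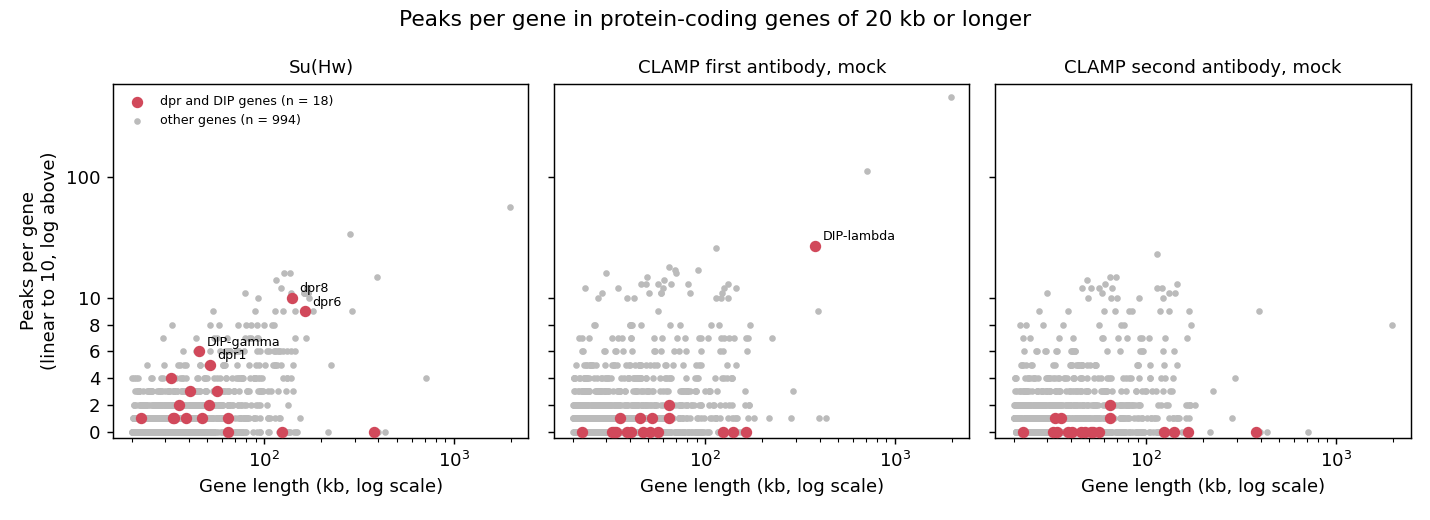
Peaks per gene (y axis, linear to 10 and log above) against gene length in kb (log scale) for dpr and DIP genes of 20 kb or longer (red, 18 genes) and other protein-coding genes of that length (grey, 994 genes) in the Su(Hw) list and both mock CLAMP lists. The red points spread through the grey cloud for Su(Hw), led by dpr8 with 10, and lie along the bottom of it for CLAMP except DIP-lambda with 27 first-antibody peaks.

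DIP-lambda, the longest member, differed from the others in its peaks. It lies on 2R between 326768 and 705848, the lowest coordinates of any member on that arm. It held 24 second-antibody CLAMP peaks after Clamp dsRNA (1.85- to 3.01-fold, median 2.29), and in mock cells the second antibody had none there. The first antibody had 27 in mock cells (1.66- to 3.04-fold, median 2.20), and Su(Hw) and CP190 had none. All dsRNA peaks at members lay in this gene (1 of 32 members with an interior dsRNA peak, against 0.984% of all and 9.88% of long protein-coding genes), as did 27 of the 34 first-antibody peaks. Of the 24 dsRNA peaks 14 overlapped a first-antibody peak from mock cells, and 12 of the 27 first-antibody peaks overlapped a dsRNA peak. Mod(mdg4) had 4 peaks in the gene (2.08- to 2.93-fold), the only Mod(mdg4) peaks at members without Su(Hw), and all 4 overlapped a dsRNA CLAMP peak. The median first-antibody fold of the gene lay at percentile 19.2 of its list. Many first-antibody peaks and none of the second antibody in mock cells also occurred in other genes. Of the 34 long genes with at least 10 first-antibody peaks 3 had none of the second, and besides DIP-lambda these were Pzl (113 first-antibody and 153 dsRNA peaks) and Parp1 (12 and 16), which were picked out after their values were seen. The sequence of these genes and how uniquely reads map there were not analysed here. Without DIP-lambda 5 of 7 first-antibody peaks at members (71.4%) had a second-antibody peak, against 65.3% of the whole list, and with it 5 of 34 (14.7%).

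CP190, which other DNA-binding proteins recruit to gene ends, was likewise scarce at the ends of these genes. It had an end peak at 6 of 32 members (18.8%, 8.89 to 35.3), against 51.4% of all and 53.0% of long protein-coding genes. Among members of 20 kb or longer it was 2 of 18 (11.1%, 3.10 to 32.8). The 6 were DIP-beta (20.2-fold), dpr20 (14.2-fold), dpr19 (2.58- and 7.90-fold, at either end), dpr6 (4.83-fold), dpr14 (3.45-fold) and DIP-eta (3.03-fold). At DIP-epsilon, dpr2 and dpr18 a CP190 peak overlapped the gene with a summit more than 500 bases outside it (12.9-, 17.8- and 19.7-fold). With ends widened to 1000 bases 11 of 32 members had a CP190 end peak, a count without a share of all genes at that distance beside it. Interior CP190 was found in 16 of 32 members (interval 33.6 to 66.4%), against 12.7% of all and 72.8% of long protein-coding genes. Su(Hw) overlapped 39 of the 51 CP190 peaks at members (76.5%), against 28.2% of the whole CP190 list and 52.4% of CP190 peaks in long-gene interiors. The gene dpr21 had a single peak of any list in 124.5 kb, an interior CP190 peak of 12.9-fold, and dpr18 and dpr20 likewise had CP190 and no Su(Hw) or CLAMP.

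No list had a peak at 8 members, which were DIP-delta, DIP-iota, DIP-zeta, dpr4, dpr5, dpr7, dpr16 and dpr17. Their median length was 13.0 kb and each was shorter than 20 kb. The share of all protein-coding genes without a peak in any list is not given here, so these 8 are not read as unusual. In 3 sets of known binding partners the genes differed in their peaks. The sets need not hold every partner of these DIPs. DIP-alpha had 1 Su(Hw) peak and 2 CLAMP sites, while its partner genes dpr6 and dpr10 had 9 and 1 Su(Hw) peaks and no CLAMP. DIP-gamma had 6 Su(Hw) peaks, and dpr11, which encodes a partner of it, had none and 1 interior CLAMP site. DIP-delta had no peak and its partner gene dpr12 had 3 Su(Hw) peaks.

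Other neuronal recognition genes were read in the same way, from 7 lists of 50 genes. An interior Su(Hw) peak was found in 31 of the 50 (62.0%), a first-antibody CLAMP end peak at 14 (28%), a second-antibody one at 6 (12%) and a CP190 end peak at 20 (40%). The beat and side genes encode immunoglobulin receptors and ligands of axon guidance. Interior Su(Hw) was found in 10 of 14 beat genes, with the strongest in beat-IIIc (23.3-fold), and in 6 of 8 side genes, with the strongest in side-V (12.2-fold). First-antibody CLAMP end peaks were found at 3 of 14 beat genes, the strongest at beat-Ia (3.16-fold), and the 8 side genes had no CLAMP peak of either mock antibody.

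The remaining lists mostly had both interior Su(Hw) and some CLAMP at gene ends. Of 12 other neural immunoglobulin genes 6 had a first-antibody end peak, the strongest at Lac (7.02-fold, and 8.19-fold with the second antibody), and 5 had interior Su(Hw), the strongest in the adhesion gene Fas2 (21.2-fold). All 4 Dscam genes had interior Su(Hw), up to 23.4-fold in Dscam4, and Dscam1 had the only CLAMP end peaks (4.51- and 2.48-fold). Both teneurin genes had interior Su(Hw), up to 20.2-fold in Ten-m, which also had CLAMP at an end (6.17- and 3.85-fold). Of the 4 genes of the irre cell recognition module, 3 had interior Su(Hw), up to 14.0-fold in kirre, and sns had the only CLAMP end peak (3.65-fold). The gene rst lies inside kirre, so its interior Su(Hw) peak counted for both. Of 6 leucine-rich repeat genes Con had interior Su(Hw) (8.65-fold), Toll-7 had the stronger of 2 CLAMP end peaks (6.51-fold), and cDIP, which encodes a secreted protein that binds Dprs and DIPs, had no peak in any list. The difference between these genes and the dpr and DIP genes was not tested.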

How the data were processed

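ChIP-seq peak lists of Su(Hw), Mod(mdg4), CP190 and CLAMP were read from Kc167 cells. The submitters' processing notes name build dm6 and, without settings, MACS2 2.1.0.20150731, Picard, SAMtools 1.2, cutadapt 1.8.1 and Bowtie2 2.2.9. The threshold for a peak is not given in the sources used. The authors deposited 6 lists, 1 per antibody and treatment from pooled libraries, so samples were grouped by antibody and treatment in their labels. Each peak has a deposited fold enrichment (a ratio over background), a deposited score and a deposited -log10 q-value, and a summit offset in bases. Only fold, -log10 q and summit were used. Read counts are not given, so depth is unknown.

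Gene positions came from a RefSeq table (Release 6 plus ISO1 MT) without strand, exons or sequence. The planned intron classes, promoters and motifs were therefore not made. Peaks and genes off the 6 arms were left out. Overlap meant at least 1 shared base. Shares have 95% Wilson intervals and densities 95% Poisson intervals (Python 3.11.15, pandas 2.3.3, numpy 2.4.6, scipy 1.17.1, statsmodels 0.14.6, matplotlib 3.10.9), and no significance test was run, since the lists hold no replicates. The joins were tested on simulated peaks. By the naming rule every member was accounted for, with full values for interior Su(Hw) and CLAMP end peaks; of other lists the strongest peak was named, and at most 2 genes per other family. Alternatives were the end distance, the better 50% of each list by -log10 q, summit rules and subsets of members. The members and lists were chosen with earlier results of these data known.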

Additional observations from a re-analysis of the deposited data

How the results depend on the processing

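Of 105 recomputed values of 16 results, 79 stayed inside the interval of the value reported. Many of these intervals are wide, so a value inside one can still differ much. Members with a CP190 end peak went from 18.8% to 34.4% with ends at 1000 bases and counted as inside. With the better 50% of each list by -log10 q, interior Su(Hw) was found in 37.5% of members. Among members of 20 kb or longer it was 55.6%, against 43.3% of all long genes. In the same setting CLAMP end peaks were found at 0% of members with either antibody (202 and 137 of 1012 long genes). Only 2 first-antibody peaks and 1 second-antibody peak at members were left, and 0% of them lay at an end. The share of Su(Hw) peaks with CP190 was 37.0% (10 of 27). Both lists were cut to their better 50%, and no share of other genes is set beside it. Of the 2 first-antibody peaks 1 had the second antibody (50%) and 0 had CP190, counts too small to read as a shift. Densities per 100 kb were 1.71, 0.127 and 0.0633 for Su(Hw) and the first and second CLAMP antibody (1.68, 2.34 and 1.71 in long genes). In DIP genes alone CLAMP end genes and end peaks were 0% for both antibodies. In dpr genes alone 100% of Su(Hw) peaks were interior and 33.3% of first-antibody peaks (1 of 3) lay at an end. With summits in or at the gene, or summits within 250 bases for shared sites, 0% of first-antibody peaks had CP190. Chosen after seeing the data, leaving out DIP-lambda gave 4.50 Su(Hw) and 0.583 first-antibody peaks per 100 kb and 71.4% of first-antibody peaks with the second. Members of 20 kb or longer, likewise chosen afterwards, gave 83.3% with interior Su(Hw) and 0% with second-antibody end peaks. In them 0 of 5 second-antibody peaks lay at an end and 0 of 33 first-antibody peaks had CP190. The cause of these shifts was not tested. No paired analysis was possible because each list pools its libraries, and for the same reason no replicate could be left out. Unknown depth limits every absence, and counts of 1 or 2 genes carry wide intervals.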

Other observations

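Most long genes with many interior Su(Hw) peaks had CLAMP as well. Of the 1012 protein-coding genes of 20 kb or longer, 75 had at least 6 interior Su(Hw) peaks, and 13 of these (17.3%) had no mock CLAMP peak of either antibody. The dpr genes dpr8 (10 peaks) and dpr6 (9 peaks) had the most Su(Hw) peaks among those 13. Next came Dpp10 with 8, and then CG42260, PVRAP, the cell recognition gene Dscam4 and the nicotinic acetylcholine receptor subunit gene nAChRalpha6 with 7 each. Another receptor subunit gene, nAChRalpha1, had 6. DIP-gamma was the remaining member among the 75 and had a first-antibody CLAMP peak. These genes were picked out after their values were seen.

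With the second antibody after Clamp dsRNA, DIP-lambda alone of the 32 dpr and DIP genes had interior peaks, against 6 of 14 beat genes and 2 of 8 side genes. The share was 0.984% of all protein-coding genes and 9.88% of those of 20 kb or longer. The 7 lists of other recognition genes together had 11 of 50. Besides beat and side these were 1 of 4 irre module, 1 of 12 other neural immunoglobulin and 1 of 6 leucine-rich repeat genes. No Dscam or teneurin gene had such a peak. The beat and side genes were picked out after their values were seen. The beat genes had 26 such peaks, of which 25 lay in 5 genes on 2L between 16000291 and 17260734, and the side genes had 9, of which 8 lay in side-II on 2L. The 8 side genes had no CLAMP peak of either antibody in mock cells. The largest number in one of these genes was 13, in beat-IIIc, where Su(Hw) had 6 interior peaks.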
